A study of Mus musculus with 2 samples.

Results

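The colony-stimulating factor receptors and their ligand gene Csf1 were followed in single microglia of mice that lacked DJ-1 (PARK7/DJ-1 KO) or were wildtype (WT), after systemic inflammation. The 6 members were chosen by name, as Csf1r, Csf1, Csf2ra, Csf2rb, Csf2rb2 and Csf3r, out of 19537 genes in the matrices, and all 6 were measured in both libraries. The KO group (KO LPS in the plots, beside WT LPS) carried a gene-trap allele of Park7, the gene of DJ-1, in a line backcrossed to C57BL/6NCrl, and the WT group was made up of wildtype littermates, with both groups taken as young adult, age-matched siblings. All mice had received lipopolysaccharide (LPS), a bacterial membrane component, into the peritoneum 24 h before the brain was taken, and no untreated library was used here. Cells sorted as CD11b+CD45int were captured by Drop-seq, a droplet method that tags each captured transcript end with a unique molecular identifier (UMI). There was 1 library per genotype, and each library pooled 2 mice, 1 female and 1 male. Genotype and library can therefore not be told apart, no test between genotypes was possible, and all intervals below are exact 95% intervals that cover counting error only.

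Colony-stimulating factors are secreted proteins that control the survival and growth of myeloid cells. CSF1R is a receptor tyrosine kinase that binds CSF1 and IL-34, and microglia depend on it for their survival. The receptor of CSF2 (GM-CSF) pairs a ligand-binding alpha chain, from Csf2ra, with a common beta chain, from Csf2rb, and mice carry a second beta chain gene, Csf2rb2, whose product serves the interleukin-3 receptor. CSF3R binds CSF3 (G-CSF), is best known from neutrophils, and signals like the CSF2 receptor through JAK kinases and STAT factors.

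Barcodes with at least 500 UMIs and at least 100 genes were taken as cells, which gave 320 cells in KO (381305 UMIs, median 963.5 per cell) and 1427 cells in WT (1989011 UMIs, median 1065 per cell). The 2 libraries shared 0 cell barcodes. The unit of level is CPM, that is how many of 1000000 UMIs from a library's cells came from the gene. Since 1 UMI stands for 1 captured transcript end, levels of different genes were compared without dividing by length. Park7 gave 1 UMI in KO (2.62 CPM) and 323 UMIs in WT (162 CPM), in the direction of the labels. All 14 microglia markers were present in both libraries, with a summed level of 32300 CPM in KO and 15120 CPM in WT. Of markers of other cells, the neutrophil list stood at 0 CPM in KO and 70.9 CPM in WT, and the choroid plexus list at 2119 CPM in KO and 14.6 CPM in WT. The other lists summed to between 5.25 and 370 CPM in KO and between 5.03 and 173 CPM in WT. The part of these differences in the results below was not tested, except that cells holding a neutrophil, monocyte, border macrophage or dendritic cell marker UMI were left out as an alternative. For the choroid plexus list, of which 65 KO cells held a UMI, only the 319 KO cells and 1427 WT cells under 10 such UMIs were kept as an alternative, so that its part was not tested.

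Csf1r was the most abundant member in both libraries, and by CPM it was higher in KO, as was Csf3r, whereas the CSF2 receptor chains and Csf1 were lower. Relative to the summed microglia markers, Csf1r was lower in KO (ratio 0.874, 0.808 to 0.945). The Csf3r ratio on that scale was 1.04, with an interval that spans 1 (0.862 to 1.26). This scale is not among the alternatives counted below. Past a 1.5-fold difference, 2 of the 6 members were higher and 4 were lower in KO. Among the 9085 genes that reached 20 UMIs in both libraries together, 51.9% differed by more than 1.5-fold, 26.2% higher and 25.8% lower in KO, so that passing this size is common. Csf1r, Csf3r, Csf2ra and Csf1 stayed past 1.5-fold in the same direction under all 15 alternatives run. Csf2rb did so under 7 and Csf2rb2 under 11, so that the count of 4 lower members depends on the processing. In 1 of the alternatives, cells with a Y-linked and no Xist UMI, Csf1 and Csf2ra gave 0 UMIs in KO. The Csf1 value of that alternative comes from the prior count, as the interval of its ratio ran from 0 to 5.16. The median log2 ratio of KO over WT over the 9085 tested genes was 0.03 with an SD of 1.17 across genes.

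**Figure D1:**
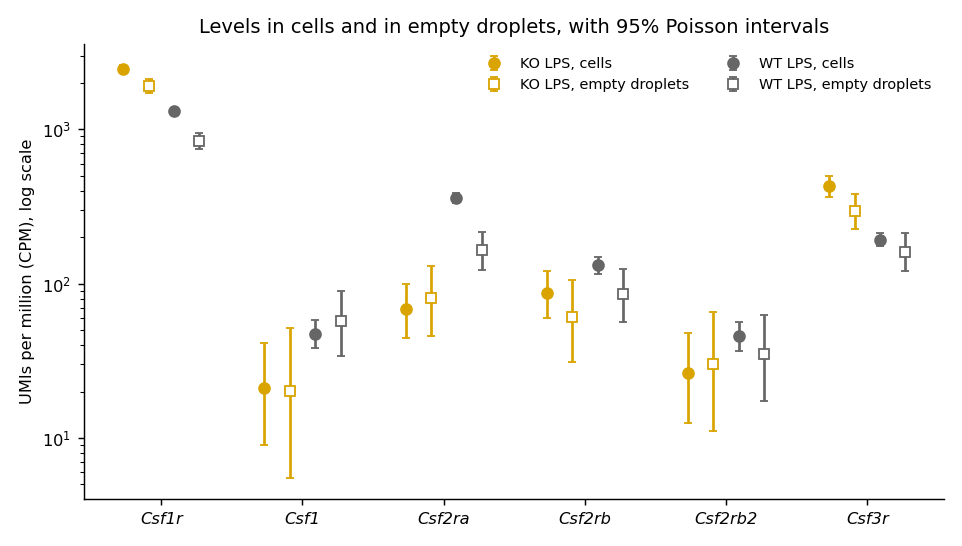
Level of each member in CPM on a log axis, in cells (filled circles) and in empty droplets (open squares) of KO and WT, with exact 95% Poisson intervals. Csf1r stands at 2463 CPM in KO cells and 1318 CPM in WT cells, and Csf2ra at 68.2 and 359 CPM.

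Csf1r (chromosome 18, 61105572 to 61131139, GRCm38.p6) gave 939 UMIs in KO, a level of 2463 CPM (2308 to 2625), and 2622 UMIs in WT, a level of 1318 CPM (1268 to 1370). The intervals of the libraries do not overlap. The ratio of KO over WT was 1.87 (1.73 to 2.01), a log2 ratio of 0.90. By level, Csf1r ranked 18 among all genes in KO and 49 in WT. Of all tested genes, 15.7% had a higher ratio than Csf1r. The largest count in 1 cell was 14 UMIs in KO and 63 UMIs in WT, the latter in the deepest cell of that library, with 27757 UMIs. Without the deepest cell of each library the log2 ratio of Csf1r was 0.92.

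Csf3r (chromosome 4, 126023441 to 126044975) was the second most abundant receptor gene in KO. It gave 164 UMIs in KO, a level of 430 CPM (367 to 501), and 384 UMIs in WT, a level of 193 CPM (174 to 213). The ratio of KO over WT was 2.23 (1.84 to 2.68), a log2 ratio of 1.16, and 10.1% of the tested genes had a higher one. The neutrophil markers were at 0 UMIs in KO and at 141 UMIs in WT. Without cells that held a neutrophil, monocyte, border macrophage or dendritic cell marker UMI, the log2 ratio of Csf3r was 1.18.

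Csf2ra (chromosome 19, 61217191 to 61228461), the alpha chain of the CSF2 receptor, differed in the other direction and by more than any other member. It gave 26 UMIs in KO, a level of 68.2 CPM (44.5 to 99.9), and 714 UMIs in WT, a level of 359 CPM (333 to 386). The level in WT was 5.26-fold (3.56 to 8.12) that in KO, a log2 ratio of -2.37 for KO over WT. Only 3.18% of the tested genes had a lower ratio. Csf2ra thus stood above Csf3r in WT and below it in KO.

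The beta chain genes lie 20078 bases apart on chromosome 15, Csf2rb2 at 78282507 to 78305721 and Csf2rb at 78325800 to 78351001. Csf2rb gave 33 UMIs in KO, a level of 86.5 CPM (59.6 to 122), and 262 UMIs in WT, a level of 132 CPM (116 to 149). Its ratio of KO over WT was 0.657 (0.443 to 0.946), a log2 ratio of -0.59, just past the 1.5-fold size. It did not pass that size in this direction under 8 of 15 alternatives, for example at -0.57 without the deepest cells and -0.27 in thinned cells. Csf2rb2 gave 10 UMIs in KO (26.2 CPM, 12.6 to 48.2) and 91 UMIs in WT (45.8 CPM, 36.8 to 56.2), and its ratio of 0.573 had an interval that spans 1 (0.266 to 1.10). In the longest annotated transcripts (GENCODE vM39), the pair was 91.5% identical over aligned bases, yet 0 of the 451 stretches of 50 bases in the last 500 bases of either transcript occurred in the other. How the counting treated reads that match both genes is not given in the sources used here, so their separate counts are uncertain.

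Csf1 (chromosome 3, 107741048 to 107760469), which encodes a ligand of CSF1R, was the least abundant member in KO. It gave 8 UMIs in KO (21.0 CPM, 9.06 to 41.3) and 94 UMIs in WT (47.3 CPM, 38.2 to 57.8), a ratio of 0.444 (0.186 to 0.911), with 57.0 CPM in the empty droplets of WT. The other CSF1R ligand, Il34, gave 0 UMIs in KO and 1 UMI in WT, and Il5, which also signals through the common beta chain, gave 0 UMIs in both. Csf2, Csf3 and Il3 were not analysed here. In order of level, the members ran Csf1r, Csf3r, Csf2rb, Csf2ra, Csf2rb2 and Csf1 in KO, where the intervals of neighbours overlap from Csf2rb down to Csf1. In WT the order was Csf1r, Csf2ra, Csf3r, Csf2rb, Csf1 and Csf2rb2, with overlap between the intervals of Csf1 and Csf2rb2.

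Promoter windows of 300 bases were at hand for 4 members (RefSeq, GRCm38.p6), and 3 are shown because they belong to the members with opposite directions and to the ligand. The Csf3r window lies inside the gene span given above and does not hold the gene start at 126023441. Which start it belongs to is not given in the sources used here. Capitals mark matches on either strand to GAGGAA, a core bound by Ets factors such as PU.1, to TGACGTCA, a cAMP response element, and to the kappaB motif of NF-kappaB. The windows are Csf2ra at chr19:61228369-61228668 on the minus strand, Csf3r at chr4:126024409-126024708 on the plus strand and Csf1 at chr3:107760420-107760719 on the minus strand.
Csf2ra: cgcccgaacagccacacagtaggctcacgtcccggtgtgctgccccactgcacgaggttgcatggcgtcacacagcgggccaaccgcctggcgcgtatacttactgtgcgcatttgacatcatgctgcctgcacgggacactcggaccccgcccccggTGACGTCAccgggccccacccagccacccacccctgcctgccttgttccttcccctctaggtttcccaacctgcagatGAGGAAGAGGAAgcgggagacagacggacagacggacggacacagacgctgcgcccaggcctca
Csf3r: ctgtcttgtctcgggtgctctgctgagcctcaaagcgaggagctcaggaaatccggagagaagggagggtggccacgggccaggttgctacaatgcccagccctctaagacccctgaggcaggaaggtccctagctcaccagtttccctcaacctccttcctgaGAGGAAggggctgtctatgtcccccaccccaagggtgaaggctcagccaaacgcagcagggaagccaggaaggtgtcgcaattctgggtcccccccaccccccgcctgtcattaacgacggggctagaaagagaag
Csf1: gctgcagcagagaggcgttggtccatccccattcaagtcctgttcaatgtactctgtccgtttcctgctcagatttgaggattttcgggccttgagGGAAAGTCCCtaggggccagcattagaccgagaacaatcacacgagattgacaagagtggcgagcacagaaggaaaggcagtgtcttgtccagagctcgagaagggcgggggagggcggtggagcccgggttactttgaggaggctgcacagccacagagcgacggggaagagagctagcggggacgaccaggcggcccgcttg
Counted from the first printed base, Csf2ra held Ets cores at 237 and 243 and the cAMP response element at 159, and Csf3r held 1 Ets core at 165. The Csf2rb2 window, which is not printed, held 2 Ets cores, at 84 and 280. The Csf1 window held the kappaB match at 97 and no Ets core. Of all 32851 promoter windows of this length, 28.3% held the Ets core, 1.79% the cAMP response element and 0.411% the kappaB motif. The cAMP response element was searched after the Csf2ra window had been read. The interferon-stimulated response element was in none of the 4 windows and in 3.44% of all, and a C/EBP motif, TTNNGNAA, was in 40.7% of all, with 1 match in Csf2ra and 2 in Csf2rb2.

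The receptors were next compared within each library, where the scaling between libraries plays no part. In KO there were 13.6 Csf1r UMIs (10.7 to 17.6) for each UMI of the 3 CSF2 receptor chains summed, from 939 and 69 UMIs. In WT there were 2.46 (2.29 to 2.64), from 2622 and 1067 UMIs. The ratio of these ratios was 5.54 (4.28 to 7.25). Csf3r likewise stood at 2.38 UMIs per CSF2 receptor UMI in KO and at 0.360 in WT, a ratio of ratios of 6.60 (4.83 to 9.09). On the log2 scale these ratios of ratios are 2.47 and 2.72, and they moved to 1.02 and 1.19 in cells with a Y-linked and no Xist UMI, of which KO had 12. Csf1r over Csf3r was 5.73 (4.85 to 6.80) in KO and 6.83 (6.13 to 7.62) in WT, and the ratio of 0.839 had an interval that spans 1 (0.686 to 1.03).

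Since the microglia markers were themselves higher in KO, the members were also counted per 100 UMIs of the 14 markers. On this scale Csf1r stood at 7.62 in KO (7.13 to 8.15) and 8.72 in WT (8.37 to 9.07), a ratio of 0.874 (0.808 to 0.945). The direction of Csf1r thus turned relative to these markers. Per 100 UMIs of the adaptor gene Tyrobp it did not turn, as Csf1r stood at 237 in KO and 105 in WT, a ratio of 2.26 (1.98 to 2.58). Csf3r stood at 41.3 and 15.3 per 100 Tyrobp UMIs, a ratio of 2.69 (2.16 to 3.34). Per 100 marker UMIs, Csf3r stood at 1.33 in KO and 1.28 in WT, a ratio of 1.04 (0.862 to 1.26). On the same marker scale Csf2ra stood at 0.211 in KO and 2.37 in WT, and the summed CSF2 receptor chains at 0.560 and 3.55. Of the 14 markers, 12 (85.7%) were past 1.5-fold higher in KO, beside 26.2% of all tested genes. The median log2 ratio of the 14 markers was 1.66, above the 0.90 of Csf1r. P2ry12, a purine receptor of resting microglia, stood at 3837 CPM in KO and 406 CPM in WT.

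Free RNA in the droplets was read from barcodes with 100 UMIs or fewer, taken as empty. These were 9069 barcodes in KO with 198723 UMIs and 4267 in WT with 315748 UMIs. In empty droplets Csf1r stood at 1912 CPM in KO and 839 CPM in WT, so that the difference between the libraries was also present outside the cells. The level in cells was 1.29-fold (1.14 to 1.45) that of empty droplets in KO and 1.57-fold (1.38 to 1.79) in WT. For Csf2ra the cells stood at 2.18-fold (1.64 to 2.95) the empty droplets in WT. In KO this ratio was 0.847 (0.438 to 1.69), so that a Csf2ra level above free RNA was not detectable at this depth. For Csf3r the ratio was 1.45 (1.07 to 1.99) in KO and 1.20 (0.891 to 1.63) in WT. Csf1 in cells was not above empty droplets in either library, at 1.04-fold (0.279 to 4.73) in KO and 0.829-fold (0.497 to 1.46) in WT, so that its counts cannot be told from free RNA. The intervals of Csf2rb in KO (0.721 to 3.05) and of Csf2rb2 in both libraries also span 1.

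**Figure D2:**
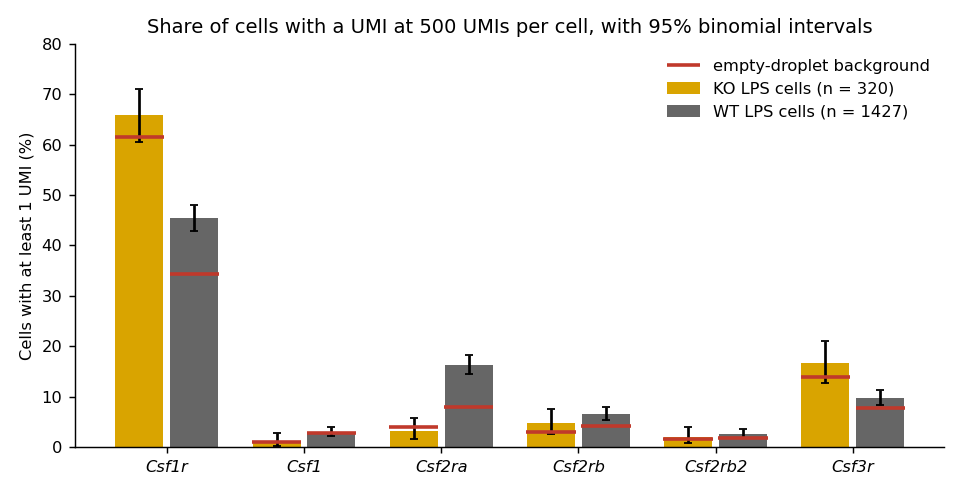
Percentage of cells with at least 1 UMI of each member after thinning every cell to 500 UMIs, for 320 cells of KO and 1427 cells of WT, with exact 95% binomial intervals. Red lines mark the share that droplets filled from the empty-droplet profile would reach, and the Csf2ra bar stands clear of its line in WT (16.3% against 7.91%) but not in KO (3.12% against 3.95%).

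To compare shares of cells, every cell was thinned to 500 UMIs, which left out no cell. A Csf1r UMI was then found in 65.9% of KO cells (60.5 to 71.1) and 45.4% of WT cells (42.8 to 48.0), where droplets filled only from the empty-droplet profile would reach 61.6% and 34.3%. Without thinning the shares were 86.2% and 71.8%. The KO share of Csf1r thus includes its background within the interval, whereas the WT share lies above it. Csf2ra was found in 3.12% of KO cells (1.51 to 5.67), with a background of 3.95%, and in 16.3% of WT cells (14.4 to 18.3), with a background of 7.91%. Unthinned shares of Csf2ra were 7.50% and 33.6%.

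Csf3r was found in 16.6% of KO cells (12.7 to 21.1), with a background of 13.8%, and in 9.74% of WT cells (8.25 to 11.4), with a background of 7.76%. The KO interval includes its background at this depth. At 1000 UMIs per cell, which left 148 KO and 770 WT cells, the Csf3r share was 33.8% (26.2 to 42.0) in KO, with a background of 25.7%. In WT it was 16.5% (13.9 to 19.3), with a background of 14.9%. The KO background rests on 59 Csf3r UMIs in empty droplets, and its own counting error is not in these intervals. At that depth the Csf1r share was 83.1% (76.1 to 88.8) in KO, with a background of 85.3%, and 69.4% (66.0 to 72.6) in WT, with a background of 56.8%. Unthinned shares of Csf3r were 34.7% and 21.4%. Csf2rb was found in 4.69% of KO cells and 6.52% of WT cells, with backgrounds of 2.97% and 4.19%. Csf2rb2 and Csf1 were found in under 3% of the cells of either library, and for Csf1 the share in WT (2.87%) was close to its background (2.81%). At least 1 CSF2 receptor chain was found in 9.69% of KO cells (6.68 to 13.5), with a background of 8.20%, and in 23.4% of WT cells (21.2 to 25.7), with a background of 13.3%.

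Among thinned cells the Csf1r counts were spread nearly as random draws from 1 mean would be. The mean was 1.20 UMIs per cell in KO and 0.621 in WT, with a variance over the mean of 1.17 and 1.03. In KO 34.1% of cells had 0 Csf1r UMIs, where a Poisson spread gives 30.1%, and in WT 54.6% had 0, where it gives 53.7%. In WT, 50.4% (43.8 to 57.0) of cells with a Csf2ra UMI and 44.4% (41.6 to 47.3) of cells without one held Csf1r, and the intervals overlap. A beta chain UMI was found in 11.6% (7.81 to 16.5) of WT cells with Csf2ra and 8.54% (7.01 to 10.3) of those without. The genes whose thinned counts ranked most like those of Csf1r, by the lower Spearman rho of both libraries among 149 genes, were C1qc, Cst3, C1qa, Tmbim6 and Serinc3. Their rho values across cells, which share depth and library, ran from 0.04 to 0.13 and are no finding in counts this sparse.

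The libraries also differed in inflammatory genes, a list chosen with earlier results of these data known. All 19 tested were past 1.5-fold lower in KO (median log2 ratio -3.32), beside 25.8% of all tested genes. Cells were therefore placed in 3 classes by their inflammatory-list UMIs after thinning, 0 to 2, 3 to 9, and 10 or more. In WT these held 630, 582 and 215 cells, and in KO 318, 1 and 1. Free RNA alone would place 35.0% of WT droplets in the middle class, so that the lower classes are not cleanly apart. Csf1r stood at 1219 CPM (1100 to 1347), 1275 CPM (1148 to 1411) and 1219 CPM (1019 to 1446) in the WT classes, and the ratio of the top over the bottom class was 1.00 (0.813 to 1.22).

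**Figure D3:**
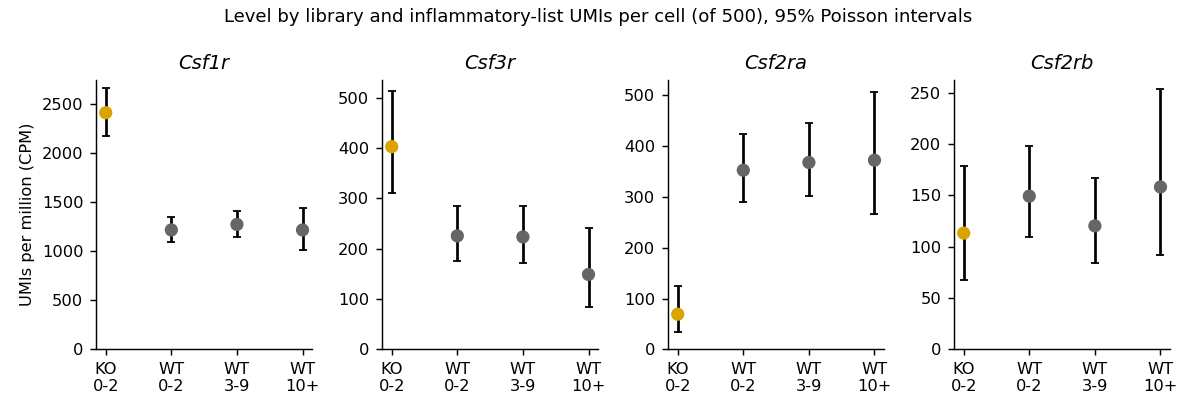
Level in CPM of Csf1r, Csf3r, Csf2ra and Csf2rb in cells thinned to 500 UMIs, for KO cells with 0 to 2 inflammatory-list UMIs and for the 3 classes of WT cells, with exact 95% Poisson intervals. Csf1r and Csf2ra are level across the WT classes, and the KO and WT intervals of the same class do not overlap for Csf1r (2415 against 1219 CPM), Csf3r and Csf2ra but do overlap for Csf2rb (113 against 149 CPM).

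Csf2ra stood at 352, 368 and 372 CPM across the same classes of WT, a ratio of the top over the bottom of 1.06 (0.717 to 1.53). Csf3r stood at 225, 223 and 149 CPM, a ratio of 0.660 (0.358 to 1.15). None of these intervals excludes 1. Between libraries and within the class of 0 to 2 inflammatory UMIs, Csf1r stood at 2415 CPM in KO and 1219 CPM in WT, a ratio of 1.98 (1.72 to 2.29). In this class the ratio was 0.196 (0.0952 to 0.365) for Csf2ra and 1.79 (1.25 to 2.54) for Csf3r. For Csf2rb it was 0.759 (0.415 to 1.33), an interval that spans 1. The class did not match the libraries on either list, since the inflammatory list stood at 692 CPM in KO and 2140 CPM in WT within it, and the microglia list at 32220 and 14219 CPM.

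**Figure D4:**
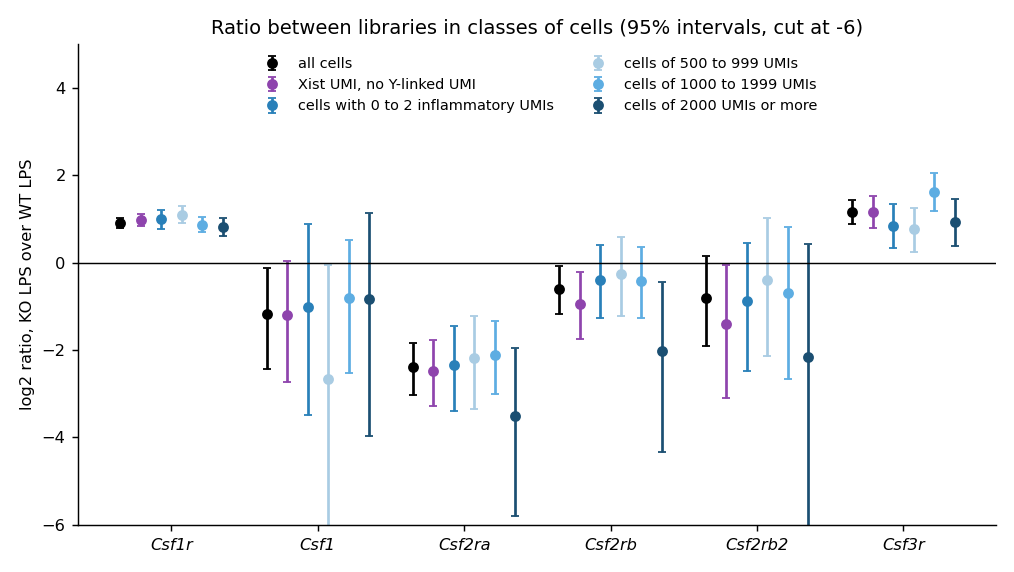
Log2 ratio of KO over WT for each member, from UMI ratios with exact 95% intervals, in all cells and in classes of cells by Xist UMIs, inflammatory UMIs and depth. Csf1r and Csf3r lie above 0 and Csf2ra below 0 in every class drawn.

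Each library pooled a female and a male mouse, and cells were placed by their Xist and Y-linked UMIs. Cells with Xist and no Y-linked UMI numbered 200 in KO and 565 in WT, and here the ratio of KO over WT was 1.96 (1.78 to 2.17) for Csf1r, 2.22 (1.72 to 2.86) for Csf3r and 0.179 (0.103 to 0.292) for Csf2ra. Cells with a Y-linked and no Xist UMI numbered 12 in KO and 195 in WT. In this class the ratio was 1.71 (1.19 to 2.41) for Csf1r, and for Csf3r it was 1.93 with an interval that spans 1 (0.685 to 4.44, 6 UMIs in KO). Csf2ra gave 0 UMIs of 14445 in KO, an interval that reaches 255 CPM, against 403 CPM in WT. Csf2rb turned direction in this class, with a ratio of 3.11 (1.08 to 7.38) that rests on 6 UMIs in KO. Xist stood at 1877 CPM in empty droplets of KO and 1048 CPM in those of WT, and its part in placing cells was not tested.

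Cells were also compared at like depth. In cells under 1000 UMIs, from 1000 to under 2000, and of 2000 or more, the Csf1r ratio of KO over WT was 2.13, 1.83 and 1.76. The Csf2ra ratio was 0.220, 0.231 and 0.0872 in these classes, and the Csf3r ratio was 1.69, 3.07 and 1.92. Leaving out cells with a neutrophil, monocyte, border macrophage or dendritic cell marker UMI gave a log2 ratio of 0.95 for Csf1r.

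Downstream of CSF1R, 23 of 26 listed signalling genes were tested, of which 10 were past 1.5-fold higher and 2 lower in KO, with a median log2 ratio of 0.42 beside 0.03 for all genes. These are 43.5% higher and 8.70% lower, beside 26.2% and 25.8% of all tested genes. Among genes with at least 100 UMIs, 6 of the list were higher and 2 lower, beside 910 higher and 1231 lower of all genes. Shares at that minimum were not calculated. Inpp5d, which encodes the inositol phosphatase SHIP1, stood at 907 CPM in KO and 390 CPM in WT, a ratio of 2.33 (2.04 to 2.64). Sos1, a Ras exchange factor, stood at 81.3 and 40.7 CPM, a ratio of 2.00 (1.28 to 3.05). Among the lower genes was Ptpn6, the gene of the phosphatase SHP-1, at 186 and 360 CPM (ratio 0.517, 0.399 to 0.661). Tyrobp, the adaptor DAP12, stood at 1041 and 1258 CPM, a ratio of 0.828 (0.743 to 0.921), within 1.5-fold.

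**Figure D5:**
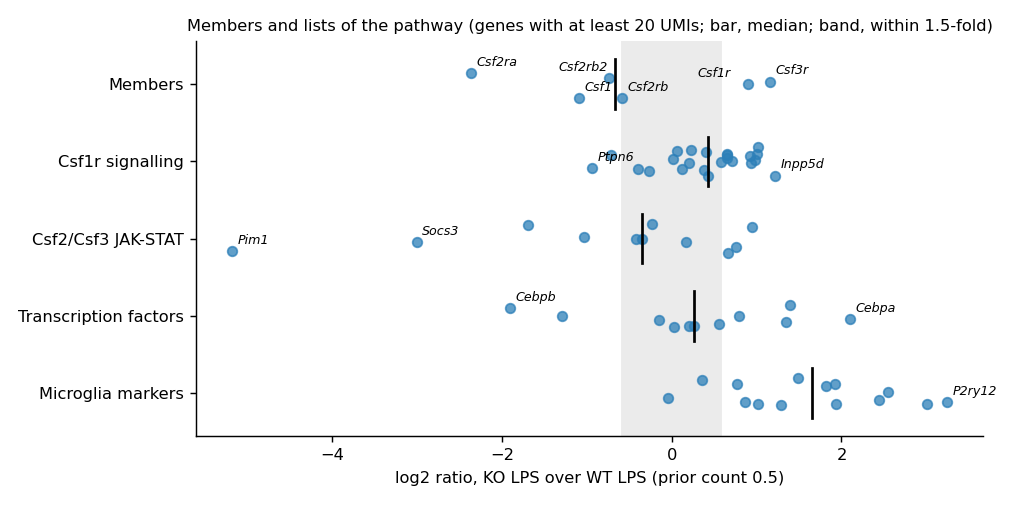
Log2 ratio of KO over WT, with a prior count of 0.5, for the 6 members and for tested genes of 4 lists, where each point is a gene, black bars are medians and the grey band spans 1.5-fold in either direction. Medians are 0.42 for Csf1r signalling, -0.35 for the JAK-STAT list, 0.26 for the transcription factors and 1.66 for the microglia markers, and the place of Pim1, at 0 UMIs in KO, depends on the prior count.

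Of the 14 JAK-STAT genes listed for the CSF2 and CSF3 receptors, 11 were tested, with 3 past 1.5-fold higher and 4 lower in KO and a median log2 ratio of -0.35. These shares of 27.3% and 36.4% lie near the 26.2% and 25.8% of all tested genes. The kinase gene Jak1 stood at 388 CPM in KO and 246 CPM in WT, a ratio of 1.58 (1.30 to 1.90), and Jak2, the kinase that binds the common beta chain, at 34.1 and 44.7 CPM (ratio 0.762, 0.390 to 1.37). The 4 lower genes were Socs3, Pim1, Mcl1 and Bcl2a1b, of which Mcl1 and Bcl2a1b, both named after their values were seen, encode survival factors. Socs3, a feedback inhibitor of cytokine receptors that acts on CSF3R, stood at 15.7 CPM in KO and 137 CPM in WT, a ratio of 0.115 (0.0419 to 0.254). Pim1, a kinase gene induced by STAT5, gave 0 UMIs in KO and 94 UMIs in WT and was at least 6.01-fold lower in KO, with a floor of 3 counts in that library. Stat3 stood at 142 and 127 CPM and Stat5b at 26.2 and 16.1 CPM, and both intervals of the ratio span 1. Stat5a gave 1 UMI and 10 UMIs, too few to compare.

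Of 12 transcription factors listed for the Csf1r locus, 11 were tested, with 4 past 1.5-fold higher and 2 lower in KO, or 36.4% and 18.2%, near the shares of all tested genes. Spi1, the gene of PU.1, stood at 275 CPM in KO and 308 CPM in WT (ratio 0.895, 0.721 to 1.10), and Irf8 at 530 and 442 CPM (ratio 1.20, 1.02 to 1.40). Cebpa and Cebpb, a pair of related factors, differed in opposite directions. Cebpa stood at 165 CPM in KO and 38.7 CPM in WT, a ratio of 4.27 (3.01 to 6.03). Cebpb stood at 147 CPM in KO and 557 CPM in WT, a ratio of 0.264 (0.198 to 0.345). Mitf stood at 83.9 and 32.2 CPM (ratio 2.61) and Ets2 at 10.5 and 28.7 CPM (ratio 0.366). Of 6 related receptors listed, 0 were tested, and the measured ones gave at most 4 UMIs in a library.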

How the data were processed

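Single-cell RNA of CD11b+CD45int brain cells was analysed from 1 Drop-seq library per genotype. The authors deposited unnormalised counts (UMIs of each gene in each barcode), for 9999 barcodes per library. Genes missing from 1 library (5616 in KO, 3036 in WT) were read as 0. The submitters' processing notes name bcl2fastq 2.0, STAR, mm9 and mm10 without roles, and the counting program, annotation and use of strand are not given in the sources used here, so counts of genes that overlap others (Csf1r, Csf1, Csf2rb, Csf2rb2 and Csf3r each overlap an annotated gene) are uncertain. Column names gave the library of every barcode, and 0 columns were left out.

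UMIs were summed over cells (scipy 1.17.1 and numpy 2.4.6 under Python 3.11.15). Intervals were exact Poisson for levels, exact conditional binomial for ratios and Clopper-Pearson for shares. Log2 ratios used a prior count of 0.5. Empty droplets were barcodes with 1 to 100 UMIs. No cell-level test was made, since the cells of a library share their source. Doublets were left in. Scrublet (scanpy 1.11.5) called 19 cells of KO (5.94%) and 5 of WT (0.350%), the latter too few to show that it worked. The calculations were tested on simulated data.

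Members and lists were chosen with earlier results of these data known. Named genes were the members, Park7, measured ligands, the 2 highest and 2 lowest genes of each pathway list with at least 50 UMIs, 8 genes fixed by name and the 5 genes most like Csf1r. Markers named beside them were chosen after their values were seen. Some genes chosen this way are not reported here. Positions and promoters are from RefSeq (GRCm38.p6), matched by symbol. Alternatives covered the cell threshold, doublets, free RNA, sex classes, scaling, prior count and thinning.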

Additional observations from a re-analysis of the deposited data

Results flagged for a closer look

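Csf1r and Csf3r were also present in barcodes that were neither cells nor empty droplets, which the comparisons above do not use, apart from 1 alternative with no UMI minimum that takes in those with at least 100 genes. These were 443 barcodes with 104710 UMIs in KO and 4302 barcodes with 759036 UMIs in WT. In them Csf1r stood at 2034 CPM (1770 to 2326) in KO and 871 CPM (806 to 940) in WT, a ratio of 2.34 (1.99 to 2.73). Csf3r stood at 525 CPM (396 to 684) in KO and 174 CPM (146 to 206) in WT, a ratio of 3.02 (2.16 to 4.17). Both were singled out because the KO level exceeded that of WT outside the cells, and neither difference was tested.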

How the results depend on the processing

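Of 90 values from 15 alternatives for each of the 6 member ratios, 88 kept the sign of the reported value and 85 lay within its interval. The counts per 100 marker UMIs, on which Csf1r turned direction (ratio 0.874), are not among these alternatives. On a scale set by the median of ratios over 1511 genes with at least 50 UMIs in each library, which shifts all genes by 0.31, the log2 ratio was 0.59 for Csf1r and 0.85 for Csf3r. A minimum in each library favours genes that are high in the shallower KO library. On a scale over 2065 genes of at least 100 CPM on average, the shift was 0.02. In cells with a Y-linked and no Xist UMI (12 in KO), the log2 ratio turned direction for Csf2rb (1.74, on 6 KO UMIs). The values for Csf2ra (-3.55, at 0 KO UMIs), Csf1 (-0.72, at 0 KO UMIs) and Csf2rb2 (1.47, on 1 KO UMI) are set largely by the prior count. No size can be read from them. Without a prior count the interval of the ratio was 0 to 0.643 for Csf2ra, 0 to 5.16 for Csf1 and 0.0450 to 13.3 for Csf2rb2. Only that of Csf2ra excludes 1. In these cells the log2 ratio of KO over WT was 1.02 for Csf1r over the CSF2 receptor chains and 1.19 for Csf3r over them. With no minimum count, the log2 ratio with the prior count put 1 ligand past 1.5-fold higher, namely Il34 at 0 UMIs in KO and 1 UMI in WT, which comes from the prior count at unequal depth and is no higher level. It also put 1 related receptor higher and 1 lower, each on 4 UMIs over both libraries, and 4 Csf1r signalling genes lower. With at least 100 UMIs, 6 Csf1r signalling genes and 1 JAK-STAT gene were higher and 1 transcription factor was lower. Fewer genes reach this minimum and the shares were not calculated, so that these counts do not compare with those at 20 UMIs. Thinning to 1000 UMIs in place of 500 moved the difference in the share of cells (KO minus WT, in percentage points) from 6.82 to 17.3 for Csf3r, from 20.5 to 13.8 for Csf1r and from -13.1 to -26.0 for Csf2ra. Over all genes, 910 were past 1.5-fold higher and 1231 lower with at least 100 UMIs, and 6907 higher and 3133 lower with no minimum. These counts come from different sets of genes. The 6907 take in genes that the prior count places there as it does Il34, and are no count of higher levels. The alternatives without the deepest cells, without cells holding other myeloid markers, without cells of 10 or more choroid plexus UMIs (1 KO cell), and with the scale over 2065 genes were chosen after seeing the data. No paired analysis was possible because each genotype has 1 library.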
